A study of Mus musculus with 9 samples.

Results

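The chaperone genes described here are heat shock proteins of the cytosol and mitochondria with their cofactors, the CCT chaperonin and prefoldin. They were chosen by a fixed list of 44 gene symbols, of which 43 are in the files of 12474 rows, and Hspa1a is not analysed here. The list covers 2 heat shock factors, 5 HSP70 and HSP110 genes, 6 J-domain genes, 4 exchange factor genes, 8 HSP90 and cochaperone genes, 5 mitochondrial chaperone genes, 8 CCT subunits and 6 prefoldin subunits. All 43 were among the 11156 rows tested, which reached 0.5 FPKM in 3 or more libraries. FPKM is the number of fragments scaled by gene length and by library total.

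The study compared wild-type RAW264.7 cells, a mouse macrophage-like line, in 3 groups with 3 libraries each. The group called I was polarized towards the M1 state with 100 ng/ml lipopolysaccharide (LPS) and 50 ng/ml murine interferon gamma (mIFNγ) while 20 mM potassium iodide was present. The group called M1 received the same LPS and interferon gamma without iodide, and for the group called Mock nothing beyond that name is stated. All groups share 1 cell line, and no label says that replicates were grown apart. The p-values therefore rest on the scatter among the libraries as given, and that scatter may be technical. With no other salt among the groups, effects of iodide cannot be told apart from those of potassium or of osmolarity, and the length of treatment is not given in the sources used here.

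Heat shock proteins are chaperones that bind unfolded protein chains and release them in cycles driven by ATP. HSP70 works with J-domain proteins, which deliver clients, and with exchange factors, which eject ADP, and it can pass clients on to HSP90. The CCT chaperonin is a double ring of 8 different subunits that folds actin and tubulin, and prefoldin brings it these clients. Under heat or protein-damaging stress the transcription factor HSF1 binds heat shock elements, inverted repeats of GAA, upstream of many of these genes.

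Because HSF1 is known to act through such elements, the RefSeq promoter windows of GRCm38.p6, 250 bases before to 50 after each transcript start, were searched for them. Windows were found for 36 of the 44 symbols. No window was found for Hsf1, Hspa8, Hspa9, Hsp90aa1, Hsp90ab1, St13, Cct4 and Pfdn1, so these could not be searched. A match to 3 alternating units, GAANNTTCNNGAA or its reverse TTCNNGAANNTTC, lay in at least 1 window of 5 of these 36 genes (13.9%), against 0.662% of the 27025 genes with a window. The 5 genes were Hspd1, Hspe1, Hsph1, Chordc1 and Dnajb6, and the matches of Hspd1 and Hspe1 are 1 shared cluster that counts for both. A match to 2 units, GAANNTTC or TTCNNGAA, which the 3-unit matches contain, lay in 14 of the 36 (38.9%), against 17.0% of all genes. Only exact letters at this spacing were counted, so elements with other letters or spacing, or outside the windows, were missed. A gene without a match, such as Dnajb1, may therefore still hold an element. The stretches that hold the 3-unit matches are shown because their genes moved differently below, and that of Hspa1b is shown as a stress-inducible HSP70 gene with 2 units. Capitals mark every base inside a match of either kind, and each stretch is read 5′ to 3′ on the strand of its gene and ends 30 bases after the RefSeq start. The Hspe1 stretch, on the plus strand at chr1:55087898-55088177, also holds the upstream matches of Hspd1, whose RefSeq start on the other strand lies 216 bases before that of Hspe1. A second RefSeq start of Hspd1 lies inside Hspe1. The window of that start held no match, and the cluster does not lie between it and the Hspe1 start.
Hspe1: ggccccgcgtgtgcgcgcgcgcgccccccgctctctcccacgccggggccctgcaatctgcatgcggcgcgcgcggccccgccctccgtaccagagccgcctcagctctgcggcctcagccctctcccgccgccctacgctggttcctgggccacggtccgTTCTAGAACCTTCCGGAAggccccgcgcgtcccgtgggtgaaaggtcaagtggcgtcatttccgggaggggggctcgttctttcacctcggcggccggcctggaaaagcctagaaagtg
Hsph1, minus strand, chr5:149636286-149636465: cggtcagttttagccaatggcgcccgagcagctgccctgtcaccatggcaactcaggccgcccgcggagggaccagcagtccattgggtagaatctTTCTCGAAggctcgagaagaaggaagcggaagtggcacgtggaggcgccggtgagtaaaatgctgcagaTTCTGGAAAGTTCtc
Chordc1, plus strand, chr9:18292117-18292296: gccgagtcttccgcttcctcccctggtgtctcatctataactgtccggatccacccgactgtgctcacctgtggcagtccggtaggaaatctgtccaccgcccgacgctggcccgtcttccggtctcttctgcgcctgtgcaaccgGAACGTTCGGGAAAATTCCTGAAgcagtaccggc
Dnajb6, plus strand, chr5:29735748-29735927: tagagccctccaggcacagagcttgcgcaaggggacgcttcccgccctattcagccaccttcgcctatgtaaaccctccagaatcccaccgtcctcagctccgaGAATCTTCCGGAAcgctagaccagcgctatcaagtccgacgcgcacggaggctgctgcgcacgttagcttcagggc
Hspa1b, minus strand, chr17:34959209-34959388: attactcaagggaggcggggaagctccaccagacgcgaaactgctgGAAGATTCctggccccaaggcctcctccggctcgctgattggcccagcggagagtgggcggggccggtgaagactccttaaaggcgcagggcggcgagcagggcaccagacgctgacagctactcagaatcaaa

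**Figure D1:**
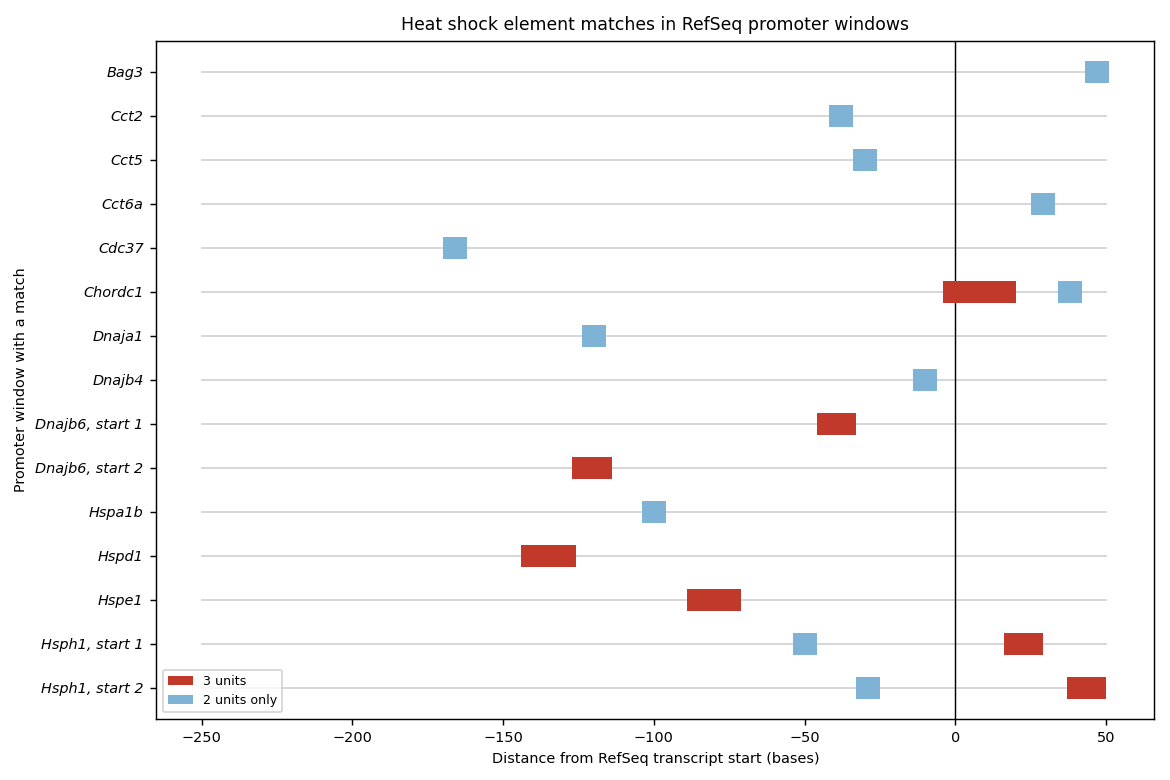
Positions of heat shock element matches along the RefSeq promoter windows of the members that hold a match, among the 43 genes in the files (x axis, bases from the transcript start; one row per window, several where a gene has several starts). Red bars are matches to 3 units and blue bars matches to 2 units only. Hspd1 and Hspe1 share a cluster of units between the Hspe1 start and the Hspd1 start drawn here, and Chordc1 has its cluster across the start.

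Library totals recovered from the FPKM steps were 18370400 to 21202240 fragments in I, 17765680 to 21867430 in M1 and 17431070 to 25470730 in Mock. All 9 macrophage markers checked have values in every library, but so has every row, so this is no check of cell type. Mean Csf1r was 96.1 FPKM in I, 69.8 in M1 and 343 in Mock. Mean Adgre1 was 35.1 in I, 102.7 in M1 and 21.7 in Mock, and mean Cd68 181, 323 and 244. For T cells, B cells, fibroblasts, epithelium and neutrophils 16 markers were not analysed here. Nos2, the inducible nitric oxide synthase and a check of polarization, was at 2069.6 ± 20.1 FPKM in I, 1447 ± 16 in M1 and 22.2 ± 0.43 in Mock (SD, n = 3 libraries in each group here and below). The log2 change of the median gene was −0.23 in M1 against Mock, −0.30 in I against Mock and −0.07 in I against M1. Scaling by the median of ratios (RLE) removed this shift, and the RLE value is given where it alters a call that the text turns on.

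Most of the chaperone genes were lower after polarization, and most were lower in I than in M1, but these were partly different genes. Of those lower with iodide, Ahsa1, Hspe1 and Pfdn4 had not been called at polarization as deposited, and Cdc37, Pfdn1 and Pfdn5 had been higher. A smaller set led by Hspa1b and Hsph1 was higher with iodide. A limma fit over all rows with a Benjamini-Hochberg adjusted p under 0.05 is the test throughout. In I against M1, 9 of 43 members rose and 27 fell, with a background of 24.9% of all rows higher and 39.3% lower. Of the 43, 36 had no overlap between I and M1 libraries (background 67.2%). The median member changed by −0.17 on the log2 scale against −0.07 for all rows. In M1 against Mock, 5 of 43 members rose and 31 fell, with a background of 30.5% higher and 55.3% lower. Their median log2 change was −0.56 against −0.23 for all rows. With RLE scaling 12 members rose and 28 fell, against 4810 higher and 4749 lower of the 11156 rows tested. Between M1 and Mock 38 had no overlap (background 86.4%). In I against Mock, 7 rose and 32 fell, with a background of 28.2% higher and 58.6% lower. With RLE scaling 13 members rose and 30 fell, against 4762 higher and 4785 lower of the 11156 rows. Between I and Mock 39 had no overlap (background 87.1%). Since most rows pass the test in these tight libraries, size separates the members better. A call with a log2 change of at least 0.5 was reached in I against M1 by 2 members upward (background 5.43%) and 7 downward (background 7.57%). In M1 against Mock it was reached by 2 upward (background 16.5%) and 25 downward (background 36.3%), and in I against Mock by 2 upward (background 15.7%) and 30 downward (background 39.3%). These comparisons share libraries, so their values stand side by side and are not independent. In such bulk samples fewer cells of a type and less RNA per cell cannot be told apart.

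**Figure D2:**
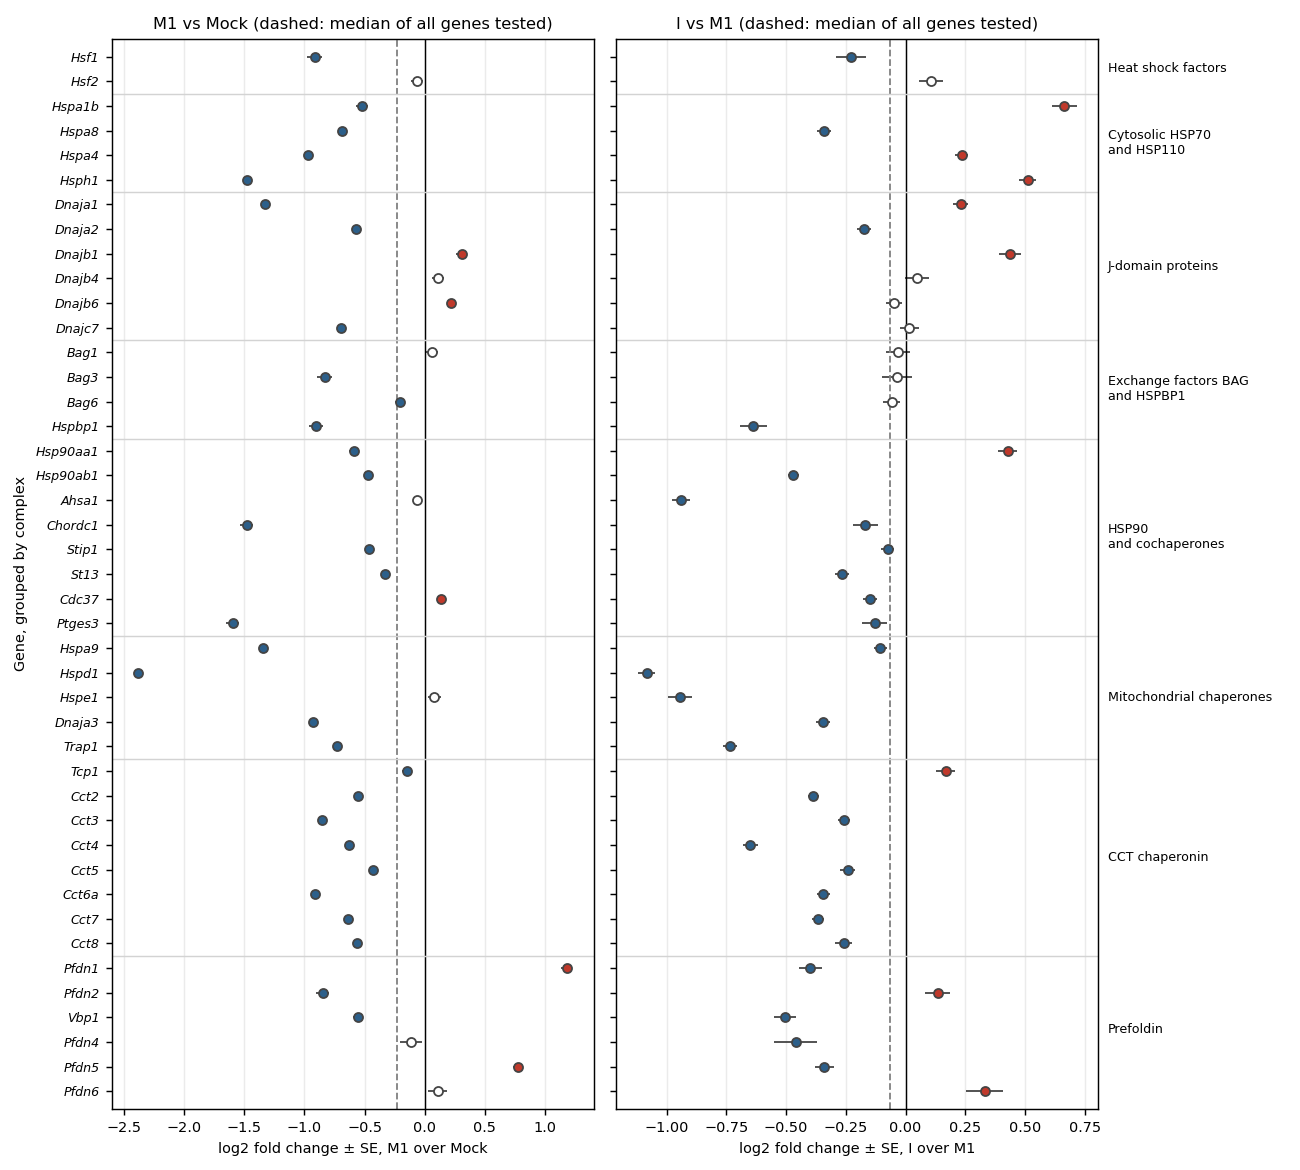
Log2 fold change with its standard error (x axis, on the log2(FPKM + 1) scale) for each of the 43 genes, grouped by complex, in M1 over Mock on the left and I over M1 on the right, with different x ranges. Red points were called higher, blue points lower and open points were not called; the dashed line is the median of all rows tested. Hspd1 lies farthest to the left in both panels, at −2.38 and −1.08.

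Of the heat shock factors, Hsf1, the main activator of heat shock genes, fell with polarization and Hsf2, a related factor that can pair with it, did not pass the test as deposited. Hsf1 had 2.44, 2.15 and 2.11 FPKM in I libraries, 2.54, 2.80 and 3.04 in M1 libraries and 5.98, 6.45 and 6.03 in Mock libraries. All M1 libraries lay below all Mock libraries, and all I libraries lay below all M1 libraries. The log2 change of Hsf1 was −0.23 ± 0.062 (SE) in I against M1 (limma adjusted p = 0.00775) and −0.92 ± 0.062 in M1 against Mock (limma adjusted p = 7.67e-08). Hsf2 had 3.55, 3.32 and 3.24 FPKM in I, 3.12, 2.97 and 3.07 in M1 and 3.17, 3.42 and 3.13 in Mock. I libraries lay above M1 libraries and overlapped with Mock, with a log2 change of 0.11 ± 0.049 in I against M1 (limma adjusted p = 0.0769, 95% interval −0.0012 to 0.22) and a rise under RLE scaling (0.17, limma adjusted p = 0.0118). RLE scaling also called Hsf2 higher in M1 against Mock (0.16, limma adjusted p = 0.00924) and in I against Mock (0.33, limma adjusted p = 6.86e-05).

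Among cytosolic HSP70 and HSP110 genes all 4 members in the files fell with polarization (background 55.3% lower). With iodide 3 rose and 1 fell (background 24.9% and 39.3%). Hspa1b, a stress-inducible HSP70, had 4.12, 4.25 and 4.71 FPKM in I, 2.47, 2.38 and 2.29 in M1 and 3.96, 3.79 and 3.82 in Mock. Its M1 libraries were the lowest and its I libraries the highest, with no overlap between any groups. The rise in I against M1 was 1.83-fold (log2 change 0.66 ± 0.052, limma adjusted p = 1.36e-06), the largest among the members. Hspa1b stood above Mock in I by 0.14 ± 0.052 on the log2 scale (limma adjusted p = 0.0247), a call that was lost without I replicate 3 (0.10, limma adjusted p = 0.105), without Mock replicate 2 (0.13, limma adjusted p = 0.0695) and without Mock replicate 3 (0.14, limma adjusted p = 0.064). Hspa1b has a near-identical neighbour, Hspa1a, and how reads that match both were treated is not given in the sources used here, so its level is uncertain. Hspa8, the constitutive HSP70, moved the other way with iodide. Hspa8 had 214, 206 and 205 FPKM in I, 273, 261 and 258 in M1 and 415, 434 and 429 in Mock, so each group lay below the next without overlap. Its log2 change was −0.34 ± 0.03 in I against M1 (limma adjusted p = 3.31e-06) and −0.69 ± 0.03 in M1 against Mock (limma adjusted p = 1.57e-09).

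The HSP110 genes Hsph1 and Hspa4 encode exchange factors for HSP70. Hsph1 had 25.0, 25.8 and 25.2 FPKM in I, 17.4, 16.6 and 18.5 in M1 and 49.9, 50.5 and 50.6 in Mock. I libraries lay between the other groups, above every M1 library and below every Mock library. The rise in I against M1 was 1.45-fold (log2 change 0.51 ± 0.036, limma adjusted p = 6.15e-07), and the fall in M1 against Mock was 2.88-fold (−1.47 ± 0.036, limma adjusted p = 1.5e-11). Hspa4 had 54.2, 54.5 and 53.1 FPKM in I, 46.6, 44.4 and 46.1 in M1 and 91.1, 91.4 and 88.8 in Mock. Hspa4 followed the same order of groups with a smaller rise in I against M1 (0.23 ± 0.026, limma adjusted p = 1.96e-05).

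Of the 6 J-domain genes 2 were higher and 3 lower in M1 against Mock, near the background of 30.5% and 55.3%. In I against M1 2 were higher and 1 lower (background 24.9% and 39.3%). Dnajb1, which encodes the main stress-inducible partner of HSP70 (HSP40), had 21.5, 23.2 and 22.0 FPKM in I, 16.1, 16.1 and 16.3 in M1 and 11.9, 13.1 and 13.6 in Mock. The 3 groups did not overlap, and I libraries were the highest. Dnajb1 rose in both steps, by 0.44 ± 0.045 on the log2 scale in I against M1 (limma adjusted p = 1.06e-05) and by 0.31 ± 0.045 in M1 against Mock (limma adjusted p = 6.33e-05). Its rise in I against Mock was 1.73-fold. Dnaja1, a J-domain partner that helps HSP70 take up clients, had 16.1, 16.9 and 16.7 FPKM in I, 14.1, 14.3 and 13.5 in M1 and 36.1, 36.6 and 36.6 in Mock. Dnaja1 fell 2.61-fold with polarization (log2 change −1.32 ± 0.031) and rose with iodide (0.23 ± 0.031, limma adjusted p = 7.31e-05), staying below Mock in every I library. Its close relative Dnaja2 had 53.5, 51.6 and 51.0 FPKM in I, 57.9, 58.9 and 59.6 in M1 and 85.7, 90.3 and 87.3 in Mock, falling in both steps, though the fall in I against M1 (−0.17 ± 0.029) was lost under quantile scaling (−0.05, limma adjusted p = 0.103). Dnajb6, a suppressor of protein aggregation, rose in M1 against Mock (22.3 ± 0.48 against 19.1 ± 0.14 FPKM). In I Dnajb6 was at 21.5 ± 0.76 FPKM and did not differ from M1 by the test (limma adjusted p = 0.207, 95% interval −0.12 to 0.02). Dnajc7, which carries both TPR and J domains, fell in M1 (8.52 ± 0.41 against 14.4 ± 0.3 FPKM) and was at 8.61 ± 0.19 FPKM in I. Dnajb4 ranged from 2.85 to 3.55 FPKM over all libraries and was called as deposited in I against Mock alone (0.16 ± 0.051, limma adjusted p = 0.0138), a call lost without Mock replicate 1 (0.13, limma adjusted p = 0.0583). Under RLE scaling Dnajb4 was also called higher in M1 against Mock (0.33, limma adjusted p = 7.67e-05).

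Of the 4 remaining exchange factors none was called higher as deposited (background 24.9% to 30.5% of rows in the comparisons). Under RLE scaling Bag1 was called higher in M1 against Mock (0.36, limma adjusted p = 4.47e-05). In I against Mock RLE scaling called both Bag1 (0.40, limma adjusted p = 1.8e-05) and Bag6 (0.10, limma adjusted p = 0.0266) higher. Bag3, which links HSP70 to selective autophagy and is a known HSF1 target, had 10.00, 9.07 and 8.62 FPKM in I, 8.71, 9.37 and 10.4 in M1 and 17.7, 17.1 and 18.1 in Mock. I and M1 libraries overlapped and all lay below Mock, with a log2 change in M1 against Mock of −0.83 ± 0.062 (limma adjusted p = 1.79e-07). In I against M1 its change was −0.03 ± 0.062 (limma adjusted p = 0.645, 95% interval −0.17 to 0.10). Bag1, a BAG-domain regulator of HSP70, overlapped between all groups, with means of 100.1 ± 6.1 FPKM in I, 102 ± 5.5 in M1 and 97.9 ± 3.6 in Mock. Bag6, which guards hydrophobic stretches of new proteins, was at 28.2 ± 0.79 FPKM in I, 29.5 ± 1.2 in M1 and 34.2 ± 0.96 in Mock, and its call of lower in M1 was lost under RLE scaling (0.08, limma adjusted p = 0.0509). Hspbp1, an HSP70 exchange factor of another family, had 10.7, 12.7 and 11.2 FPKM in I, 18.0, 18.4 and 19.0 in M1 and 35.8, 37.0 and 33.6 in Mock, the groups lying apart in that order. Its log2 change was −0.64 ± 0.057 in I against M1 (limma adjusted p = 3.42e-06) and −0.90 ± 0.057 in M1 against Mock.

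**Figure D3:**
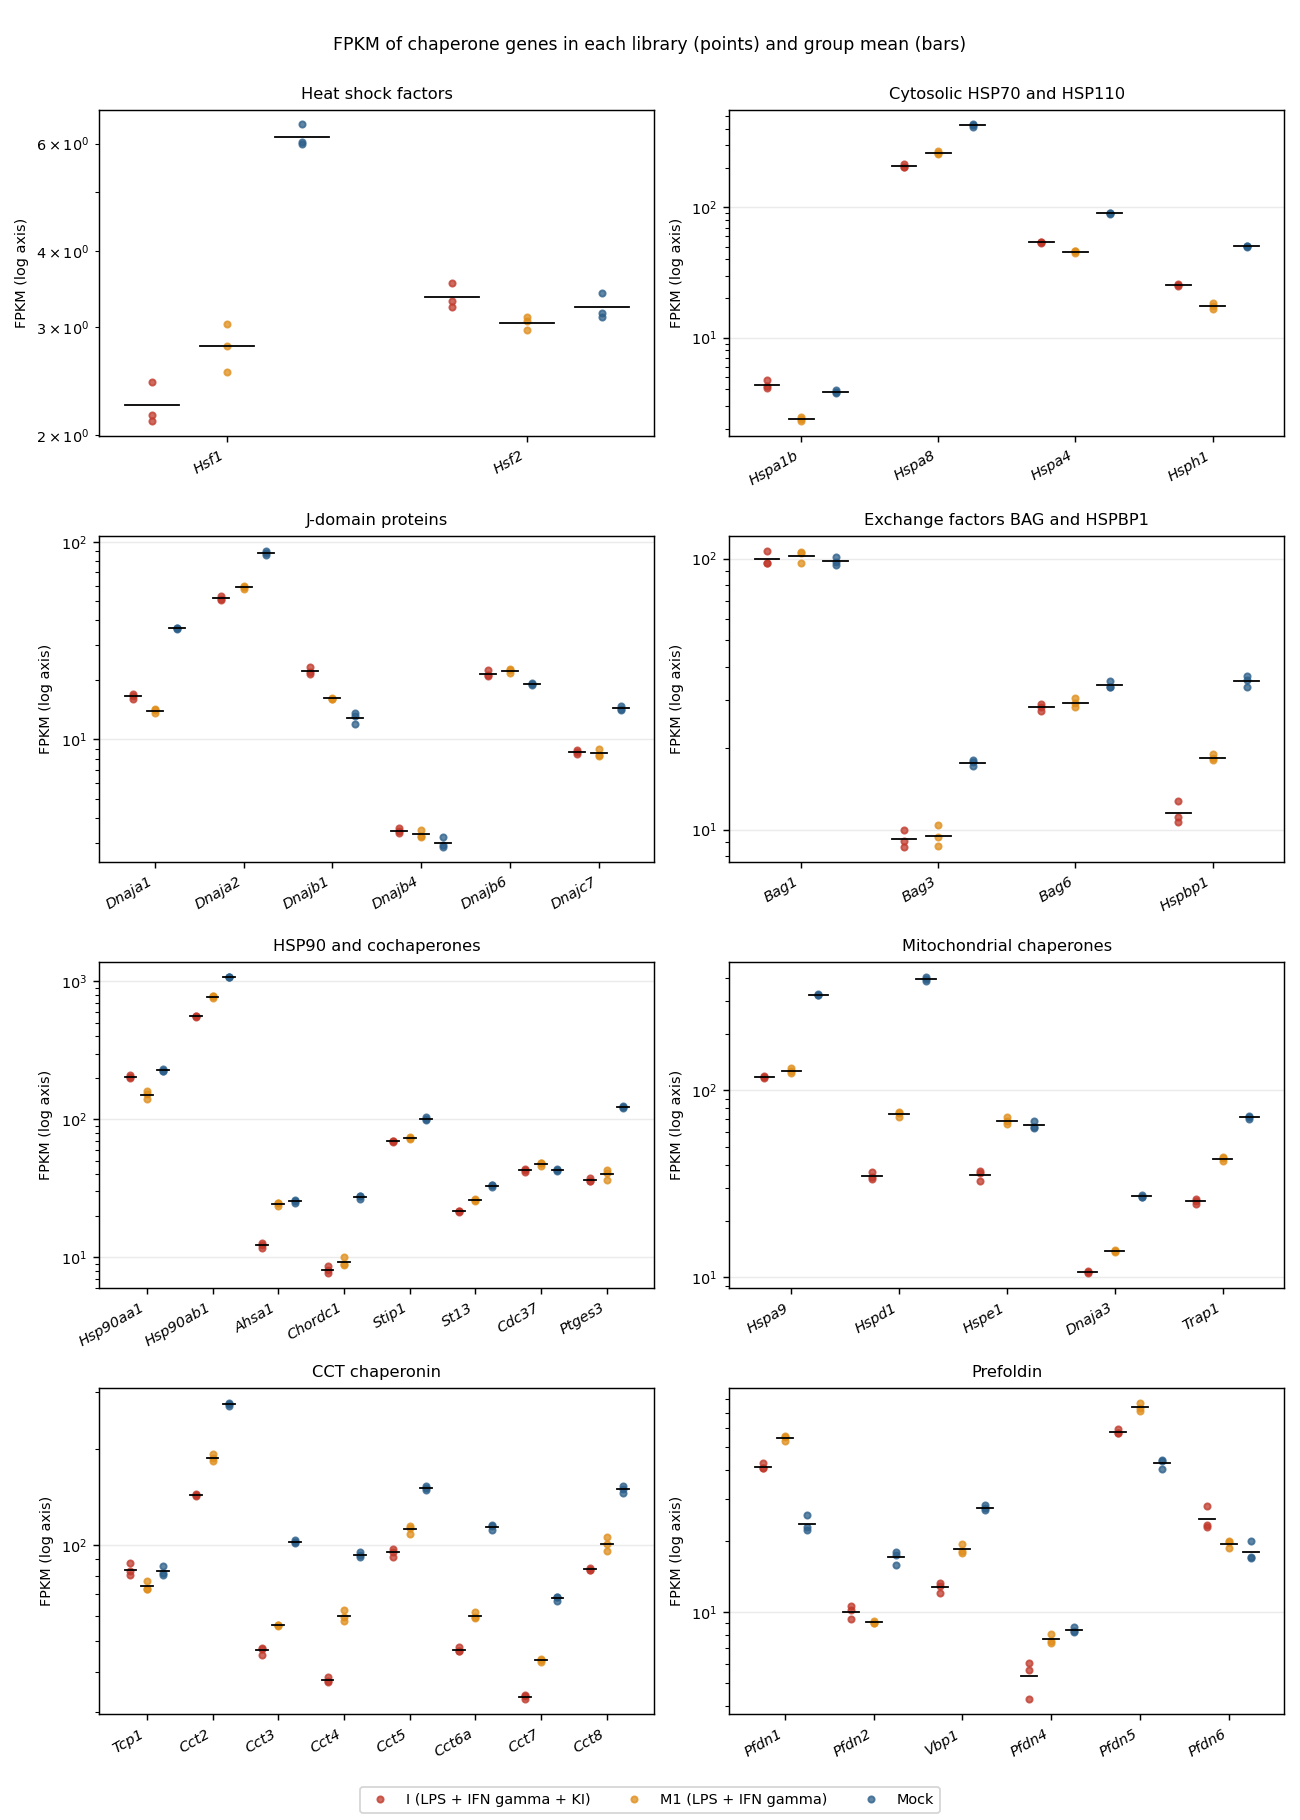
FPKM of each of the 43 genes (y axis, log scale, a range per panel) in every library, with I, M1 and Mock from left to right for each gene; points are libraries and bars are group means. Hspd1 stands at 34.8 in I, 74.9 in M1 and 394 in Mock, while the M1 and Mock libraries of Hspe1 beside it overlap.

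The HSP90 genes moved apart with iodide. Hsp90aa1, the stress-inducible cytosolic HSP90, had 209.5, 202 and 199 FPKM in I, 159, 141 and 153 in M1 and 225, 232 and 225 in Mock. I libraries lay above all M1 libraries and below all Mock libraries. Hsp90aa1 rose 1.35-fold in I against M1 (log2 change 0.43 ± 0.04, limma adjusted p = 5.23e-06) and had fallen in M1 against Mock (−0.59 ± 0.04). It was lower in I than in Mock as deposited (−0.16 ± 0.04) and higher with RLE scaling (0.21, limma adjusted p = 0.000363). Hsp90ab1, the constitutive form, had 564, 553 and 564 FPKM in I, 763, 784 and 783 in M1 and 1071, 1075 and 1084 in Mock, the highest level per kilobase of any member. Hsp90ab1 fell in both steps without overlap, with a log2 change of −0.47 ± 0.023 in I against M1 (limma adjusted p = 4.2e-08) and −0.47 ± 0.023 in M1 against Mock (limma adjusted p = 4.37e-09).

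Of the 6 HSP90 cochaperones all were called lower with iodide (background 39.3%), and 3 of these calls were lost under RLE scaling. Ahsa1, which stimulates the HSP90 ATPase, had 12.3, 12.6 and 11.7 FPKM in I, 23.5, 24.6 and 24.9 in M1 and 24.9, 26.0 and 25.8 in Mock. M1 and Mock libraries overlapped while all I libraries lay below both, a 1.99-fold fall (log2 change −0.94 ± 0.036, limma adjusted p = 6.66e-09). In M1 against Mock Ahsa1 did not pass the test (−0.07 ± 0.036, limma adjusted p = 0.112) and was called higher under RLE scaling (0.22). Ptges3 (p23, which stabilizes closed HSP90) had 37.6, 35.9 and 35.7 FPKM in I, 43.0, 40.7 and 36.3 in M1 and 126, 121 and 122 in Mock. Its 3.07-fold fall in M1 against Mock (log2 change −1.60 ± 0.052) was the largest of the cochaperones, whereas I and M1 overlapped and the call between them (−0.13 ± 0.052) was lost under RLE scaling (limma adjusted p = 0.382) and when any 1 of the 9 libraries other than M1 replicate 3 or I replicate 1 was left out (limma adjusted p 0.0576 to 0.176). Chordc1, a stress-inducible HSP90 partner whose start carries the repeat shown above, had 8.12, 7.66 and 8.58 FPKM in I, 10.0, 8.92 and 8.80 in M1 and 28.0, 26.7 and 28.0 in Mock. All polarized libraries lay below Mock, with a log2 change in M1 of −1.48 ± 0.053 (limma adjusted p = 2.8e-10), and the small fall with iodide (−0.17 ± 0.053) was lost under RLE scaling (limma adjusted p = 0.12), without M1 replicate 1 (−0.11, limma adjusted p = 0.0589) and without I replicate 2 (−0.13, limma adjusted p = 0.0649). Stip1 (HOP, which bridges HSP70 and HSP90) was at 69.5 ± 0.95 FPKM in I, 73.3 ± 0.82 in M1 and 101 ± 2.8 in Mock, and its call with iodide was lost under RLE scaling (limma adjusted p = 0.977), without M1 replicate 1 (−0.07, limma adjusted p = 0.0584), without M1 replicate 3 (−0.07, limma adjusted p = 0.0788) and without I replicate 3 (−0.06, limma adjusted p = 0.0952). St13 (HIP, which stabilizes ADP-bound HSP70) was at 21.5 ± 0.38 FPKM in I, 26.1 ± 0.64 in M1 and 33.0 ± 0.46 in Mock, lower in I than in M1 (limma adjusted p = 1.51e-05), while its call of lower in M1 than in Mock was lost under RLE scaling (−0.04, limma adjusted p = 0.248). Cdc37, which delivers kinases to HSP90, rose in M1 against Mock (47.5 ± 1.3 against 43.2 ± 0.65 FPKM) and was at 42.8 ± 1 FPKM in I, below M1 (limma adjusted p = 0.00107). In I against Mock Cdc37 did not pass the test as deposited (−0.01 ± 0.029) and was called higher under RLE scaling (0.35, limma adjusted p = 4.74e-07).

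The mitochondrial chaperone Hspd1 had the largest fall of any member in each comparison. In M1 against Mock Ptges3 (−1.60), Chordc1 (−1.48) and Hsph1 (−1.47) fell more than the other mitochondrial members. Hspd1 encodes HSP60, the chaperonin of the mitochondrial matrix (ENSMUSG00000025980.14, chromosome 1, 55077835 to 55088243, minus strand, GRCm38). Hspd1 had 34.6, 36.4 and 33.5 FPKM in I, 76.8, 75.6 and 72.4 in M1 and 393, 385 and 406 in Mock. The 3 groups lay far apart, with no overlap between any of them. The fall was 2.15-fold in I against M1 (log2 change −1.08 ± 0.035, limma adjusted p = 1.93e-09), 5.26-fold in M1 against Mock (−2.38 ± 0.035, limma adjusted p = 3.63e-13) and 11.3-fold in I against Mock.

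Hspe1 encodes HSP10, the lid that closes the HSP60 barrel, and lies head to head with Hspd1 (ENSMUSG00000073676.4, chromosome 1, 55088132 to 55091307, plus strand, GRCm38). Hspe1 had 37.2, 32.8 and 36.0 FPKM in I, 65.9, 71.6 and 69.0 in M1 and 63.4, 63.0 and 68.8 in Mock. M1 and Mock libraries overlapped, and all I libraries lay below both. Hspe1 fell 1.95-fold in I against M1 (log2 change −0.94 ± 0.051, limma adjusted p = 8.21e-08). In M1 against Mock its change was 0.08 ± 0.051 (limma adjusted p = 0.162, 95% interval −0.03 to 0.19), or 0.38 under RLE scaling (limma adjusted p = 4.17e-05). The element matches printed above lie between the Hspe1 start and the first Hspd1 start named there. These partners both fell with iodide, while as deposited Hspd1 alone of the pair passed the test at polarization. Their annotated exons overlap by 112 bases on opposite strands, and reads there cannot be told apart without strand. The annotation also names 5 pseudogenes after Hspd1 and 6 after Hspe1, which can share reads with them.

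The remaining 3 mitochondrial members fell in both steps as deposited (background 55.3% lower in M1 against Mock and 39.3% in I against M1). Hspa9 (mortalin, the matrix HSP70) had 119.7, 118 and 117 FPKM in I, 132, 123 and 126 in M1 and 324, 327 and 324 in Mock. Nearly all of its change came with polarization (log2 change −1.35 ± 0.027), and the small fall with iodide (−0.11 ± 0.027) was lost under RLE scaling (limma adjusted p = 0.325). Trap1, the mitochondrial HSP90, had 25.5, 26.3 and 24.7 FPKM in I, 42.1, 43.4 and 43.8 in M1 and 72.1, 73.2 and 70.6 in Mock. Its log2 change was −0.74 ± 0.03 in I against M1 (limma adjusted p = 1.05e-08) and −0.73 ± 0.03 in M1 against Mock (limma adjusted p = 1.09e-09). Dnaja3, a J-domain partner of Hspa9, had 10.7, 10.5 and 10.8 FPKM in I, 14.0, 13.9 and 13.6 in M1 and 27.0, 27.6 and 26.9 in Mock, without overlap between groups, and fell in I against M1 (−0.35 ± 0.029).

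All 8 CCT subunits were lower in M1 than in Mock as deposited (background 55.3%), 7 of them also under RLE scaling. In I 7 of 8 were lower again (background 39.3%), with Tcp1 the exception. Outside Tcp1 the log2 changes ran from −0.65 to −0.24 in I against M1 and from −0.91 to −0.43 in M1 against Mock, and none of these 14 calls changed under RLE scaling. Summed over the 8 subunits the level was 561 to 579 FPKM in I, 676 to 712 in M1 and 1027 to 1052 in Mock. Cct4 had 37.6, 38.7 and 37.1 FPKM in I, 62.4, 57.6 and 59.6 in M1 and 92.9, 95.2 and 91.5 in Mock, with the largest iodide fall of the ring (−0.65 ± 0.033, limma adjusted p = 4.95e-08). Cct6a had 46.4, 47.8 and 46.5 FPKM in I, 59.3, 58.9 and 61.4 in M1 and 111, 115 and 115 in Mock, with the largest fall at polarization (−0.91 ± 0.027, limma adjusted p = 6.36e-11). Both genes showed 3 separate levels without overlap. Cct2, the most abundant subunit transcript per kilobase, had 142, 144 and 143 FPKM in I, 193, 183 and 186 in M1 and 272, 279 and 276 in Mock. Cct3 was at 46.7 ± 1.2 FPKM in I, 56.0 ± 0.18 in M1 and 102 ± 1 in Mock. Cct7 was at 33.5 ± 0.58 FPKM in I, 43.5 ± 0.45 in M1 and 68.0 ± 0.97 in Mock. These subunits kept the order of groups seen for Cct4. Cct5 was at 94.6 ± 2.8 FPKM in I, 112 ± 3.6 in M1 and 151 ± 2.2 in Mock, with the smallest iodide fall of the 7 (−0.24 ± 0.031). Cct8 was at 84.0 ± 0.54 FPKM in I, 101 ± 5.1 in M1 and 149 ± 3.9 in Mock.

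Tcp1, the alpha subunit of the ring, had 83.0, 87.9 and 80.3 FPKM in I, 77.3, 73.0 and 72.9 in M1 and 81.9, 85.9 and 80.2 in Mock. I libraries lay above all M1 libraries and overlapped with Mock. Tcp1 rose by 0.17 ± 0.04 in I against M1 (limma adjusted p = 0.00343), and in M1 against Mock it was lower as deposited (−0.15 ± 0.04, limma adjusted p = 0.00412) but higher under RLE scaling (0.15, limma adjusted p = 0.00474). In I against Mock Tcp1 did not pass the test as deposited (0.02 ± 0.04) and was called higher under RLE scaling (0.39, limma adjusted p = 2.8e-06). Of its 5030 annotated exon bases 571 overlap Acat3 and 141 overlap Mrpl18 on the opposite strand, and 452 of 3620 in Cct6a overlap Psph. Without a stated strand setting these levels are less certain. The same holds for other members, among them Dnaja1 (857 of 8629 bases) and Dnajc7 (441 of 4863). Pseudogenes are also named after Tcp1, Cct3, Dnaja1, Hspa9 and Ptges3.

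Prefoldin subunits split. At polarization 2 of 6 rose, 2 fell and 2 did not pass the test (background 30.5% higher and 55.3% lower). With iodide 2 rose and 4 fell (background 24.9% and 39.3%), with the same iodide calls under RLE scaling. At polarization RLE scaling gave 3 higher and 2 lower, since Pfdn6 was then called higher (0.39, limma adjusted p = 0.000733). Pfdn1 had 40.5, 40.5 and 42.6 FPKM in I, 54.9, 55.8 and 53.2 in M1 and 22.3, 22.8 and 25.6 in Mock. Pfdn5, which also binds the MYC protein, had 59.4, 57.1 and 57.4 FPKM in I, 70.9, 73.2 and 77.0 in M1 and 40.4, 43.9 and 43.8 in Mock. In both genes I lay between M1 and Mock without overlap. Pfdn1 rose 2.32-fold in M1 against Mock (log2 change 1.18 ± 0.047, limma adjusted p = 7.57e-10), the largest rise of any member, and Pfdn5 1.73-fold (0.77 ± 0.039, limma adjusted p = 5.82e-09). With iodide both fell, Pfdn1 with a log2 change of −0.40 ± 0.047 and Pfdn5 of −0.34 ± 0.039. Vbp1, which encodes subunit 3, had 13.3, 12.9 and 12.0 FPKM in I, 19.5, 17.8 and 18.1 in M1 and 27.5, 27.0 and 28.2 in Mock, falling in both steps. Pfdn2 fell in M1 (9.02 ± 0.083 against 17.1 ± 1.1 FPKM) and was at 10.0 ± 0.6 FPKM in I, a small rise (limma adjusted p = 0.0406) that was lost without any 1 library of M1, without I replicate 1 or 2, and without Mock replicate 3 (limma adjusted p 0.0507 to 0.142). Pfdn6 was higher in I at 28.0, 23.0 and 23.4 FPKM, against 18.6, 19.7 and 20.0 in M1 and 17.1, 16.8 and 20.1 in Mock (I against M1 0.33 ± 0.078, limma adjusted p = 0.00341). Pfdn4 was lower in I at 6.06, 4.26 and 5.67 FPKM, against 7.50, 7.39 and 8.04 in M1 and 8.60, 8.26 and 8.22 in Mock (I against M1 −0.46 ± 0.091, limma adjusted p = 0.00113). Exons of Pfdn2 overlap Klhdc9 by 535 of 1937 bases and those of Pfdn4 overlap Gm16796 by 639 of 2520, both on the opposite strand.

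Ratios of paired members within a library do not depend on the scaling between libraries. Of 8 listed pairs 7 could be formed, and each was tested with an exact permutation test over all 1680 ways to label the 9 libraries, with Benjamini-Hochberg adjustment over the 7. The pairs were chosen with earlier results of these data known, so these p-values only describe the ratios and are no independent test. The smallest p this design allows is 0.00357, and a comparison of 3 against 3 libraries cannot go below 0.1, so pairs of groups are described without a p. The log2 ratio of inducible Hsp90aa1 to constitutive Hsp90ab1 was −1.43, −1.46 and −1.50 in I, −2.26, −2.47 and −2.36 in M1 and −2.25, −2.21 and −2.27 in Mock (exact permutation p = 0.00714, adjusted p = 0.0125). I stood apart from the other groups, which overlapped, with a mean ratio of 0.363 in I, 0.194 in M1 and 0.211 in Mock. The log2 ratio of inducible Hspa1b to constitutive Hspa8 was −5.70, −5.60 and −5.44 in I, −6.79, −6.77 and −6.82 in M1 and −6.71, −6.84 and −6.81 in Mock (exact permutation p = 0.0321, adjusted p = 0.0357). Again the I libraries alone were high, by 1.21 over M1.

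The ratio Dnajb1 to Dnaja2 took 3 separate levels, −1.32, −1.15 and −1.21 in I, −1.85, −1.87 and −1.87 in M1 and −2.84, −2.78 and −2.69 in Mock on the log2 scale (exact permutation p = 0.00357, adjusted p = 0.00833). Dnaja1 to Dnaja2 and Hsph1 to Hspa4 both placed I between M1 and Mock without overlap, with the same p. Mean log2 ratios of Dnaja1 to Dnaja2 were −1.65 in I, −2.08 in M1 and −1.27 in Mock. Those of Hsph1 to Hspa4 were −1.09 in I, −1.39 in M1 and −0.85 in Mock. The Hspd1 to Hspe1 ratio was −0.11, 0.15 and −0.10 in I, 0.22, 0.08 and 0.07 in M1 and 2.63, 2.61 and 2.56 in Mock (exact permutation p = 0.0107, adjusted p = 0.015). It dropped by 2.48 in M1 against Mock, and I and M1 overlapped. Bag3 to Bag1 likewise separated only Mock, with means of −3.44 in I, −3.43 in M1 and −2.47 in Mock (exact permutation p = 0.0357, adjusted p = 0.0357).

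**Figure D4:**
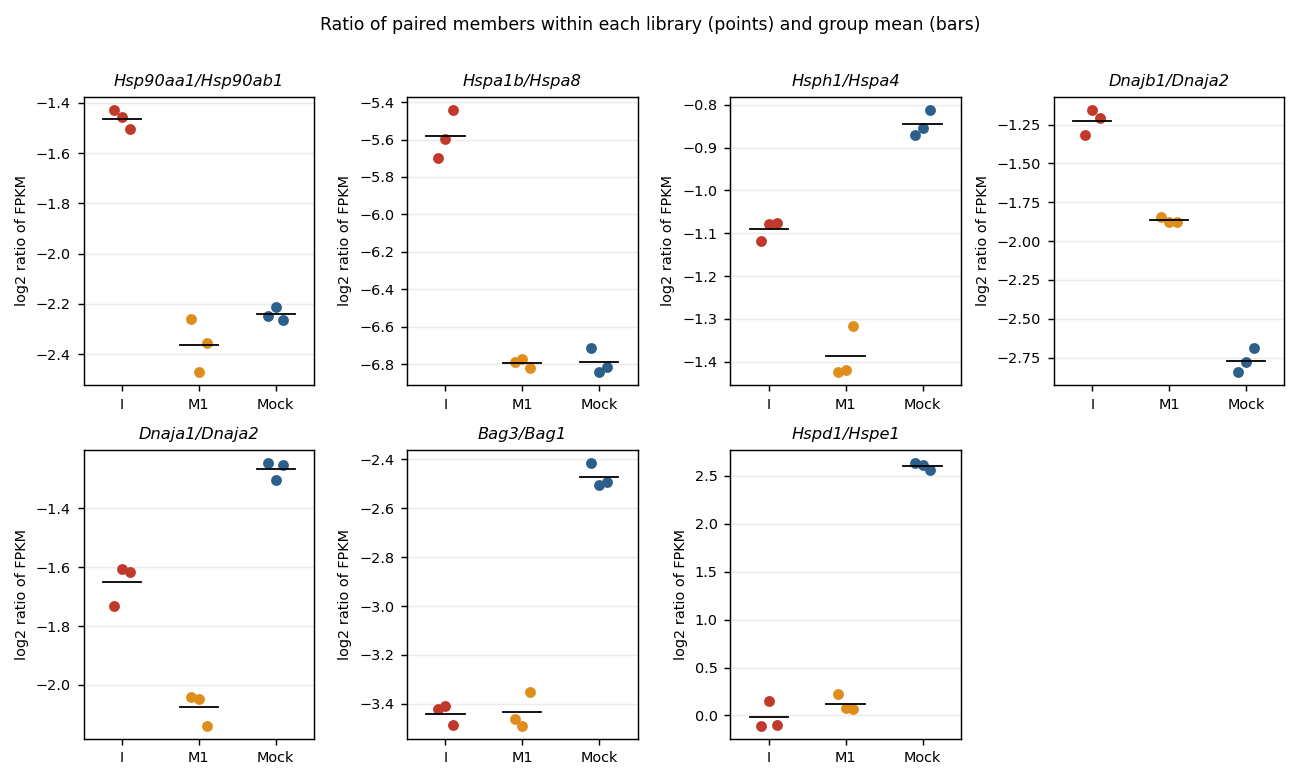
Log2 ratio of FPKM between paired members (y axis, a range per panel) within each library, with I, M1 and Mock from left to right; points are the 3 libraries of a group and bars their mean. In Hsp90aa1/Hsp90ab1 and Hspa1b/Hspa8 the I libraries stand above both other groups, and in Bag3/Bag1 and Hspd1/Hspe1 the Mock libraries stand above both.

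Further cytosolic cofactors and HSP70 relatives, listed beside the members, had 23 rows tested, 2 of them for Hspa14, which the files list more than once. In I against M1 6 rows were higher, 11 lower and 6 not called (background 24.9% higher and 39.3% lower). In M1 against Mock 6 were higher and 15 lower (background 30.5% and 55.3%). Hspa4l, an HSP110 gene known from osmotic responses, was the largest iodide rise of that list at 36.8, 38.0 and 38.3 FPKM in I, 13.0, 12.8 and 12.9 in M1 and 10.9, 11.0 and 11.2 in Mock. All I libraries were far above the others (I against M1 1.48 ± 0.028, limma adjusted p = 4.77e-11). The HSP90 cochaperone Fkbp4 had 27.9, 25.8 and 27.0 FPKM in I, 44.7, 46.7 and 43.9 in M1 and 134, 136 and 133 in Mock, and Cacybp, which binds the calcyclin protein, was at 14.0 ± 0.19 FPKM in I, 23.5 ± 0.28 in M1 and 68.7 ± 1 in Mock. Both fell in each step without overlap. Ppid, a cyclophilin that binds HSP90, was at 11.4 ± 0.42 FPKM in I, 12.7 ± 0.6 in M1 and 45.3 ± 0.43 in Mock. Of 26 other J-domain genes tested 10 were higher and 8 lower in I against M1 (background 24.9% and 39.3%). Among them Dnajb9, a J-domain protein of the endoplasmic reticulum, was at 9.40 ± 0.7 FPKM in I, 5.70 ± 0.31 in M1 and 9.54 ± 0.13 in Mock. Of 15 other mitochondrial chaperone and protease genes 2 were higher and 9 lower in I against M1 (background 24.9% and 39.3%). In M1 against Mock 7 of these were higher and 6 lower (background 30.5% and 55.3%). Grpel1, the exchange factor of Hspa9, rose in M1 (29.2 ± 0.23 against 18.8 ± 0.47 FPKM) and was at 28.8 ± 0.71 FPKM in I, and the protease gene Htra2 fell in both steps (10.3 ± 0.76 FPKM in I, 13.2 ± 0.42 in M1 and 24.5 ± 0.73 in Mock).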

How the data were processed

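RNA of RAW264.7 cells, purified with poly-T beads, was sequenced in 9 libraries. The deposited values are FPKM by the authors, a unit inferred from their steps. The authors used, per the submitters' processing notes, fastp 0.20.1, HISAT2 2.2.1 and featureCounts 2.0.1 (Subread) with GRCm38, with settings, strand use and annotation not stated. There are 12474 rows in each library, none at 0, so genes at 0 in a library are not analysed here. With GENCODE vM21 exon lengths, found for 97.8% of rows, 98.4% to 98.6% of values were whole fragments within 0.05, which gave the library totals. Levels are per summed exon length.

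From these values limma 3.58.1 in R 4.3.3 was run on log2(FPKM + 1) over the 11156 rows that reached 0.5 FPKM in 3 or more libraries, with a term per group, moderated variances and an intensity trend. The filter removed 1318 rows. Fold changes on this scale understate changes of low genes, and folds printed as such are ratios of mean FPKM. The model and the permutation test were tested on simulated data. The members, gene lists and pairs were chosen with earlier results of these data known. All members are named, and from each other list genes among the 3 smallest p in a comparison. Tbcc and Hspa14 are named besides. Alternatives were scaling, pseudocount, filter, trend, limma-voom, the 2 compared groups alone, a replicate block and each library left out. Promoter windows and sequences are from RefSeq, build GRCm38.p6.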

Additional observations from a re-analysis of the deposited data

How the results depend on the processing

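Scaling was the choice that mattered. The number of members called higher in M1 against Mock was 5 as deposited, 12 with RLE, 10 with upper-quartile and 8 with quantile scaling, and in I against Mock it was 7 as deposited, 13 with RLE and 11 with upper-quartile scaling. Among members called as deposited or under the scaling named, directions turned in M1 against Mock with RLE for Ahsa1 (0.22), Tcp1 (0.15), Hsf2 (0.16) and Bag6 (0.084), with upper-quartile scaling for Ahsa1 (0.10) and Tcp1 (0.022), and with quantile scaling for Hsf2 (0.34) and Bag1 (−0.12). In I against Mock they turned with RLE for Hsp90aa1 (0.21), Cdc37 (0.35) and Bag6 (0.10), with upper-quartile scaling for Hsp90aa1 (0.051) and Cdc37 (0.19), and with quantile scaling for Cdc37 (0.083). The cause of these shifts was not tested. In I against M1 no such member turned, while Bag1, Bag3, Bag6 and Dnajb6, called neither as deposited nor with RLE, changed sign with RLE, as Pfdn4 did in M1 against Mock. The calls in I against M1 were 10 higher and 23 lower with RLE. Scaling also moved the split of all rows in M1 against Mock, from 3405 higher and 6166 lower to 4810 and 4749 with RLE. In I against M1 it moved from 2775 and 4382 to 3478 and 3540, and in I against Mock from 3146 and 6534 to 4762 and 4785. A pseudocount of 0.1, no filter, a filter at 1 FPKM, no trend, 2 groups alone and limma-voom on recovered fragments left each of the 6 member counts within 1.5 times. Leaving out any 1 library gave 8 to 9 higher and 24 to 27 lower in I against M1, 5 to 6 and 31 to 32 in M1 against Mock, and 6 to 7 and 32 in I against Mock. The 7 ratio tests stayed under 0.05 with a pseudocount of 1 and without any 1 library. Where a group stands far apart, this test stays under 0.05 however the other groups lie, so that outcome adds no support. Replicate numbers did not pair the libraries, since same-numbered deviations correlated at −0.12 to 0.05, and a replicate block left 9 higher and 27 lower in I against M1, 5 and 31 in M1 against Mock and 7 and 32 in I against Mock. Depth limits only the lowest members, since 1 fragment on 1 kb is worth 0.039 to 0.057 FPKM.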

Other observations

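Genes that act beside CCT and prefoldin were split at polarization. Of 12 chaperonin cofactor, prefoldin-like and tubulin folding genes, 6 were higher and 5 lower in M1 against Mock (background 30.5% and 55.3%). In I against M1 2 were higher and 8 lower (background 24.9% and 39.3%), all at a limma adjusted p under 0.05. Uri1, a prefoldin-like scaffold protein gene, had 3.75, 4.18 and 4.59 FPKM in I, 5.50, 5.12 and 5.09 in M1 and 24.1, 23.6 and 24.3 in Mock, with a log2 change of −2.00 ± 0.056 in M1 against Mock. The tubulin cofactor genes Tbca and Tbcb were highest in M1. The cofactor genes Tbcc, Tbcd and Tbce went the other way and were called lower in M1 against Mock (log2 change −1.10, −0.68 and −0.76). Tbca was at 40.7 ± 4.1 FPKM in I, 63.7 ± 3.4 in M1 and 43.5 ± 3.1 in Mock, and Tbcb was at 21.2 ± 1.5 in I, 32.0 ± 1.5 in M1 and 24.0 ± 1.1 in Mock (SD, n = 3 libraries in each group).

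Of 12 actin and tubulin genes, the best known clients of CCT, 4 were higher and 5 lower in I against M1 (background 24.9% and 39.3%). In M1 against Mock 6 were higher and 5 lower (background 30.5% and 55.3%). Tuba1a had 71.9, 72.5 and 71.4 FPKM in I, 67.2, 68.2 and 68.0 in M1 and 6.92, 6.55 and 6.60 in Mock. Actg1 had 471, 494 and 458 FPKM in I, 668, 690.2 and 652 in M1 and 140.2, 142 and 143 in Mock. Both were far above Mock in every polarized library, while 7 CCT subunits were below it. The 5 client genes called lower in M1 against Mock moved the same way as these subunits. In I against Mock 5 of the 12 were higher and 6 lower (background 28.2% and 58.6%). Actb was at 1170.5 ± 18 FPKM in I, 1650.0 ± 33 in M1 and 1201 ± 24 in Mock, and fell with iodide (log2 change −0.49 ± 0.027, limma adjusted p = 9.79e-08). Reads of actin and tubulin genes can be shared with close paralogs and pseudogenes, so these levels are uncertain.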
